A study of Homo sapiens with 12 samples.

Results

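Expression of 10 genes that cells use to adapt to low oxygen was examined in T47D breast cancer cells treated with anastrozole, with estradiol or with both. They were VEGFA, ADM and ANGPTL4 (secreted factors of blood vessels), CA9 and SLC16A3 (pH and lactate), BNIP3 and BNIP3L (removal of mitochondria), NDRG1, ANKRD37 and DDIT4. The 10 genes were taken by symbol from a table of 25370 genes, and all 10 were among the 21132 genes with at least 1 count in some library. T47D cells are an established human breast cancer line that carries the estrogen receptor and grows in response to estrogen. Anastrozole, a drug given in breast cancer, blocks aromatase, which converts androgens to estrogens. E2 stands for 17β-estradiol, the main natural estrogen. The 12 RNA-seq libraries fell into 4 groups of 3 replicates, lettered a, b and c: vehicle, anastrozole (10 nM), E2 (0.1 nM) and, at the same concentrations, the combination of anastrozole plus E2. Before treatment the cells of every group were kept for 48 h in medium with 5% charcoal-stripped serum, which is poor in steroids, and then for 24 h without serum. The sample labels give 12 h of treatment, and the methods of the study give a longer time. No label names an exposure to low oxygen, and every value below comes from this single line. The comparisons address which transcripts anastrozole alters on its own, and how these relate to those altered by E2 and by the combination. The genes were selected on their known roles and on their differences from vehicle in these same libraries, in which most of them stood higher when treated. Their differences from vehicle are therefore given as a description, with standard errors and without p-values, and calls against vehicle, which come from the fit over all genes, are counted only to describe where the values stand and support nothing, whether kept or lost in another fit. Tests are reported for the comparisons among the 3 treatments, which contain no vehicle library.

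In cells with ample oxygen, prolyl hydroxylases mark the alpha subunits of the hypoxia-inducible factors (HIF) for degradation. When oxygen falls, the subunits escape, pair with HIF-1β and bind the core sequence ACGTG in the control regions of genes for glycolysis, vessel growth, pH control and mitophagy. In breast tumours VEGFA and CA9 are widely used as markers of this response.

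The promoter sequences are shown because HIF acts through ACGTG, and because the genes whose libraries stood apart from vehicle and those whose libraries overlapped with it can be compared for it. RefSeq promoters (GRCh38.p14) were read for 7 of the 10 genes, namely ADM, ANGPTL4, CA9, SLC16A3, BNIP3, ANKRD37 and DDIT4, with 11 promoters in all since SLC16A3 has 5. The 250 bases before the start site are printed 5′ to 3′ on the gene's strand, with ACGTG or its reverse complement CACGT in capitals.

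CA9, chr9:35673678-35673927, plus strand: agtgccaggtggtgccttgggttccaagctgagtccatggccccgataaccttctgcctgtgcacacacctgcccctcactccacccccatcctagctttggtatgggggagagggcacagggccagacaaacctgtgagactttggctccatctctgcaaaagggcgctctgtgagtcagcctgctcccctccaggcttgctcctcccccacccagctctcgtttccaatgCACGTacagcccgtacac
ANKRD37, chr4:185396591-185396840, plus strand: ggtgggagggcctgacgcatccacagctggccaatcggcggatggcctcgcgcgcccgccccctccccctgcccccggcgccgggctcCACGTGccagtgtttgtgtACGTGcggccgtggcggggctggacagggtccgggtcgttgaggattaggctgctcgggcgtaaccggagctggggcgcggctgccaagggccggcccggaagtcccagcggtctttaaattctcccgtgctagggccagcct
BNIP3, chr10:131981924-131982173, minus strand: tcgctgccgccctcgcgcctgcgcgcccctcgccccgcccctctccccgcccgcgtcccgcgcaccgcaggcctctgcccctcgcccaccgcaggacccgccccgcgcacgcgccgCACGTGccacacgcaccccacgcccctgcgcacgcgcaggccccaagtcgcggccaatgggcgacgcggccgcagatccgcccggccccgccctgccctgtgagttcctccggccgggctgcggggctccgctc
ANGPTL4, chr19:8363905-8364154, plus strand: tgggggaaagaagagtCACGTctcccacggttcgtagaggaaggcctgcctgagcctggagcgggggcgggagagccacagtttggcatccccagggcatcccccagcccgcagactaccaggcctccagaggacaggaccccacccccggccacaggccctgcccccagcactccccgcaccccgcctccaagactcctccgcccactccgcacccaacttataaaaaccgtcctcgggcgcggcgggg
DDIT4, chr10:72273674-72273923, plus strand: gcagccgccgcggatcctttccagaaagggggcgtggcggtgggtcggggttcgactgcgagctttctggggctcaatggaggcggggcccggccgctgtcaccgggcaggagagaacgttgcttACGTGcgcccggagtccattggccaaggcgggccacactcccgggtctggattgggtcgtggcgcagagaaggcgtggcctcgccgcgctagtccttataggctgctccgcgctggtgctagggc
SLC16A3, chr17:82228792-82229041, plus strand: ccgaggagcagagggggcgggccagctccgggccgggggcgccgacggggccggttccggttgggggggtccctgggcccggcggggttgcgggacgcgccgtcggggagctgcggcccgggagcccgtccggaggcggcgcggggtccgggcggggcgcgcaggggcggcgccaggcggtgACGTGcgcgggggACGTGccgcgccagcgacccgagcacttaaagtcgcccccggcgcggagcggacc

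ACGTG or CACGT was found in 6 of the 7 genes, which was 6 of the 11 promoters. It was in 1 copy in CA9, ANGPTL4 and DDIT4 and in 2 copies in 1 of the 5 SLC16A3 promoters. In BNIP3 and ANKRD37 the palindrome CACGTG holds a match on both strands, so that the 2 matches in BNIP3 and 2 of the 3 in ANKRD37 overlap. In ADM only GCGTG, the other form of the core, was found, in 1 copy. Of the 35116 promoters searched in the same window, 18.5% held ACGTG or CACGT and 32.2% held GCGTG or CACGC. None of the 11 windows held the consensus estrogen response element, an inverted repeat with a spacer of 3 bases, which 0.0399% of the promoters held. CA9, ANGPTL4, BNIP3 and ANKRD37, whose libraries stood apart from vehicle, carried ACGTG or CACGT. Of the genes whose libraries overlapped with vehicle under each treatment, DDIT4 carried it, SLC16A3 did in 1 of its 5 promoters and ADM did not. VEGFA, BNIP3L and NDRG1, which also stood apart from vehicle, had no promoter read here. The match is a description of the letters in these windows.

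Each library held 9914253 to 17009776 counts on genes, which was 32.7% to 33.5% of its tabulated reads. Replicates differed by more than sampling noise in every group (chi-square divided by its degrees of freedom, 1.28 to 4.83), so no library was counted as a duplicate. All 9 luminal markers examined, among them ESR1, PGR and GATA3, were present, with a summed level of 10134 to 11188 CPM (counts scaled to the size of the library). Endothelial markers summed to 0.505 to 1.60 CPM. Fibroblast markers summed to 80.4 to 100.4 CPM, carried by COL1A1, with COL1A2, DCN, LUM and PDGFRB at 7 counts or fewer per library. Leukocyte markers summed to 3.27 to 4.59 CPM in vehicle and 5.01 to 7.14 CPM in the treated libraries, carried by CD68, with PTPRC at 0 to 3 counts. The part of these markers in the results below was not tested. The labels do not say whether the replicates came from separate cultures, and the methods speak of independent experiments for gene expression in general. If the libraries share a culture, p-values measure only the spread between them, which may be technical.

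Against vehicle, 7 of the 10 genes stood higher with every treatment: VEGFA, ANGPTL4, CA9, BNIP3, BNIP3L, NDRG1 and ANKRD37 had all 9 treated libraries above all 3 vehicle libraries, as 2.52% of all genes tested did. In single comparisons with vehicle, 8.63% of all genes had 3 anastrozole libraries above the 3 of vehicle, 13.0% had 3 E2 libraries and 9.66% had 3 combination libraries above them. ADM, SLC16A3 and DDIT4 overlapped with vehicle under each treatment. With anastrozole 7 of the 10 genes were called higher (edgeR, adjusted p under 0.05 over all genes) and none lower, where 3.67% of all genes tested were called. This count rests on the tool and on single libraries: limma-voom called 15 of the 21132 genes in place of 776 and VEGFA alone of the 10, and with 1 library left out edgeR called from 191 genes (without vehicle replicate c) to 1651 (without anastrozole replicate c). With E2 6 were called higher and none lower, where 12.0% of all genes were called. With anastrozole plus E2 7 were called higher and none lower, where 5.04% of all genes were called. The median log2 difference of the 10 genes was 0.19 with anastrozole, 0.22 with E2 and 0.19 with the combination, and the median over all genes tested was 0 each time. The 3 comparisons share the vehicle libraries, and nothing is read from these counts, because the choice of the genes used them. In bulk RNA a change in the share of cells that express a gene and a change in the RNA per cell cannot be told apart. All values below are CPM scaled by TMM (the trimmed mean of M-values), and gene positions are from GENCODE on GRCh37, the assembly that hg19 shares.

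**Figure D1:**
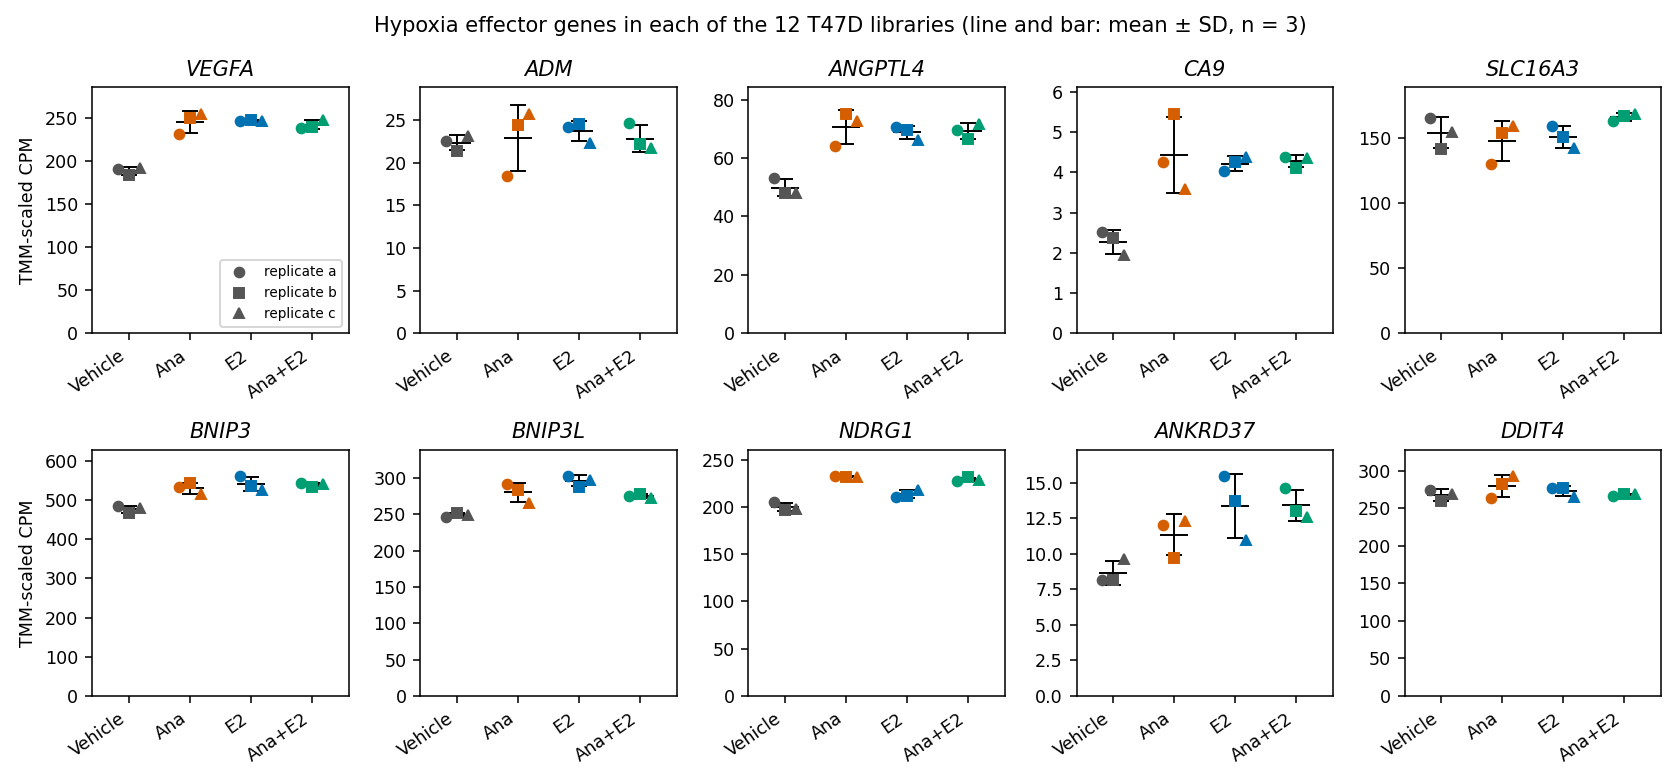
Level of each of the 10 genes in the 12 libraries, in TMM-scaled CPM on a linear axis from 0, by treatment. Symbols mark replicates a, b and c, and the line with its bar is the mean ± SD of 3 libraries. VEGFA, ANGPTL4 and CA9 stood at 1 level in vehicle and at a higher one, shared by the 3 treatments, while ADM, SLC16A3 and DDIT4 overlapped with vehicle.

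VEGFA, the main growth factor for blood vessels (chr6:43737921-43754224), was at 191, 183 and 192 CPM in vehicle replicates a, b and c. It was at 231, 250.0 and 255 CPM with anastrozole, at 246, 248 and 246 CPM with E2 and at 238, 240 and 248 CPM with the combination. The 3 treatments thus reached the same range, well apart from vehicle, and the E2 libraries were the tightest with a mean of 246 ± 1.05 CPM (SD, n = 3). VEGFA was 1.30-fold higher with anastrozole (log2 0.38, SE 0.05), 1.31-fold with E2 (log2 0.39, SE 0.04) and 1.28-fold with both (log2 0.36, SE 0.04).

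ANGPTL4, a secreted inhibitor of lipoprotein lipase that also acts on vessel walls (chr19:8428173-8439254), followed the same course. Its vehicle libraries were at 53.3, 48.1 and 48.2 CPM, against 64.1, 75.2 and 72.7 CPM with anastrozole. With E2 it was at 70.7, 69.6 and 66.3 CPM, and with the combination at 69.5, 66.5 and 71.8 CPM. No treated library fell to the vehicle range. The log2 differences were 0.50 (SE 0.06) with anastrozole, 0.47 (SE 0.05) with E2 and 0.47 (SE 0.05) with the combination. ADM, which encodes the vasodilator peptide adrenomedullin (chr11:10326620-10328944), lay in 1 range throughout, from 18.5 to 25.7 CPM, both of them anastrozole libraries (replicates a and c). Its group means ran from 22.3 ± 0.881 CPM in vehicle to 23.7 ± 1.18 CPM with E2 (SD, n = 3). The 95% intervals of its log2 differences from vehicle ran from -0.16 to 0.21 with anastrozole, from -0.07 to 0.25 with E2 and from -0.12 to 0.20 with the combination. Of the angiogenic genes examined, then, the 2 of higher level stood above vehicle and ADM was not distinguishable from it.

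CA9, a carbonic anhydrase on the outer face of the cell membrane that is a classical HIF target (chr9:35673925-35681156), had the largest fold among the 10 genes and the lowest level. It gave 31, 31 and 25 counts in the vehicle libraries, or 2.51, 2.36 and 1.94 CPM. With anastrozole it was at 4.26, 5.46 and 3.58 CPM, with E2 at 4.02, 4.25 and 4.37 CPM and with the combination at 4.38, 4.11 and 4.36 CPM. The lowest treated library was above the highest vehicle library in each group, and the anastrozole libraries were the most spread (4.43 ± 0.952 CPM, against 4.22 ± 0.179 with E2 and 4.28 ± 0.153 with both; SD, n = 3). The folds were 1.93 with anastrozole (log2 0.95, SE 0.22), 1.86 with E2 (log2 0.89, 95% interval 0.49 to 1.30) and 1.89 with both (log2 0.92, SE 0.20). With 25 to 72 counts per library, CA9 had the widest intervals of the 10, and its call with anastrozole was lost without anastrozole replicate b (log2 0.79). On the genome 35.7% of its exon bases overlap ARHGEF39 on the opposite strand, and the strand setting of the counting is not given in the sources used here. ARHGEF39 itself was at 29.9 ± 1.27 CPM in vehicle, 28.6 ± 0.274 with anastrozole, 27.3 ± 0.881 with E2 and 29.7 ± 0.329 with the combination, and its part in the CA9 counts was not tested.

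SLC16A3 (chr17:80175810-80219005) encodes MCT4, the transporter that exports lactate from glycolytic cells. Its vehicle libraries were at 166, 142 and 155 CPM, its anastrozole libraries at 130.0, 154 and 159 CPM and its E2 libraries at 159, 151 and 142 CPM. The combination gave 163, 167 and 169 CPM, the tightest group and the one with the highest mean (166 ± 2.84 CPM; SD, n = 3). Against vehicle the log2 differences were -0.06 (SE 0.05) with anastrozole, -0.03 (SE 0.04) with E2 and 0.11 (SE 0.04) with the combination, none of them called. Without vehicle replicate a the combination was called against vehicle, at a log2 difference of 0.17, and also with a replicate block (0.11). SLC16A3 overlaps CSNK1D on the opposite strand over 5.22% of its exon bases. CSNK1D was at 181 ± 3.97 CPM in vehicle, 177 ± 11.8 with anastrozole, 168 ± 4.84 with E2 and 173 ± 3.64 with both (SD, n = 3), and its part in the SLC16A3 counts was not tested.

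BNIP3 (chr10:133781188-133795471) and BNIP3L (NIX, chr8:26240570-26363152) are related proteins of the outer mitochondrial membrane that recruit the autophagy machinery to mitochondria. BNIP3 was at 484, 466 and 479 CPM in vehicle, at 533, 543 and 515 CPM with anastrozole, at 561, 537 and 526 CPM with E2 and at 543, 534 and 542 CPM with both. BNIP3L was at 246, 252 and 249 CPM in vehicle, at 292, 283 and 266 CPM with anastrozole, at 303, 288 and 298 CPM with E2 and at 275, 278 and 272 CPM with both. Every treated library of either gene was above vehicle, but the folds were smaller than those of VEGFA or CA9. For BNIP3 the log2 differences were 0.15 (SE 0.04), 0.18 (SE 0.03) and 0.18 (SE 0.03) with anastrozole, E2 and both. For BNIP3L they were 0.17 (SE 0.04), 0.25 (SE 0.03) and 0.14 (SE 0.04). The anastrozole calls were the least secure: BNIP3 lost its call without anastrozole replicate a or b or without vehicle replicate b or c, and BNIP3L without anastrozole replicate a or b or without vehicle replicate a or c. Over the 6 fits the log2 difference with anastrozole stayed between 0.14 and 0.17 for BNIP3 and between 0.14 and 0.21 for BNIP3L. BNIP3L overlaps PNMA2 on the opposite strand over 7.95% of its exon bases. PNMA2 was far lower, from 3.61 ± 0.446 CPM in vehicle to 7.38 ± 0.592 CPM with E2, and its part in the BNIP3L counts was not tested.

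NDRG1, a cytoplasmic protein induced by hypoxia, metal chelation and differentiation signals, lies at chr8:134249418-134314265. Its libraries were at 205, 197 and 198 CPM in vehicle and at 232, 232 and 232 CPM with anastrozole. It was at 210.5, 212 and 218 CPM with E2 and at 228, 231 and 228 CPM with the combination. The E2 libraries lay between vehicle and the other treated groups, without overlapping either. The log2 differences from vehicle were 0.22 (SE 0.05) with anastrozole, 0.09 (SE 0.04) with E2 and 0.20 (SE 0.04) with both, and the E2 value was not called, except without vehicle replicate a (log2 0.11) and with the correction for GC content described below (log2 0.15, alone or with a replicate block).

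ANKRD37, a small ankyrin repeat protein whose gene is a direct HIF target (chr4:186317175-186321782), was at 8.17, 8.14 and 9.65 CPM in vehicle. With anastrozole it was at 12.0, 9.70 and 12.3 CPM, with E2 at 15.5, 13.7 and 11.0 CPM and with both at 14.6, 13.0 and 12.6 CPM. The nearest libraries, anastrozole replicate b and vehicle replicate c, were almost level. The log2 differences were 0.40 (SE 0.13), 0.62 (SE 0.12) and 0.64 (SE 0.11). The call with anastrozole held in 1 of the 6 fits that left out a library, the one without anastrozole replicate b (log2 0.49), and its log2 difference over the 6 ran from 0.35 to 0.49. A replicate block also ended the anastrozole call (log2 0.39). ANKRD37 shares 40.4% of its exon bases with UFSP2 on the opposite strand, whose means were 27.2 ± 2.54 CPM in vehicle, 30.3 ± 2.28 with anastrozole, 33.7 ± 0.420 with E2 and 29.8 ± 0.861 with both. UFSP2 thus also had its lowest mean in vehicle, and its part in the ANKRD37 counts was not tested.

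DDIT4 (REDD1), which restrains the growth kinase complex mTORC1 under hypoxia and other stresses (chr10:74033678-74035794), was at 274, 259 and 268 CPM in vehicle. It was at 264, 282 and 293 CPM with anastrozole, at 277, 277 and 265 CPM with E2 and at 267, 268 and 268 CPM with both. The groups overlapped throughout, with the widest spread in anastrozole, and the 95% intervals of the log2 differences from vehicle were -0.02 to 0.15, -0.04 to 0.10 and -0.07 to 0.07.

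**Figure D2:**
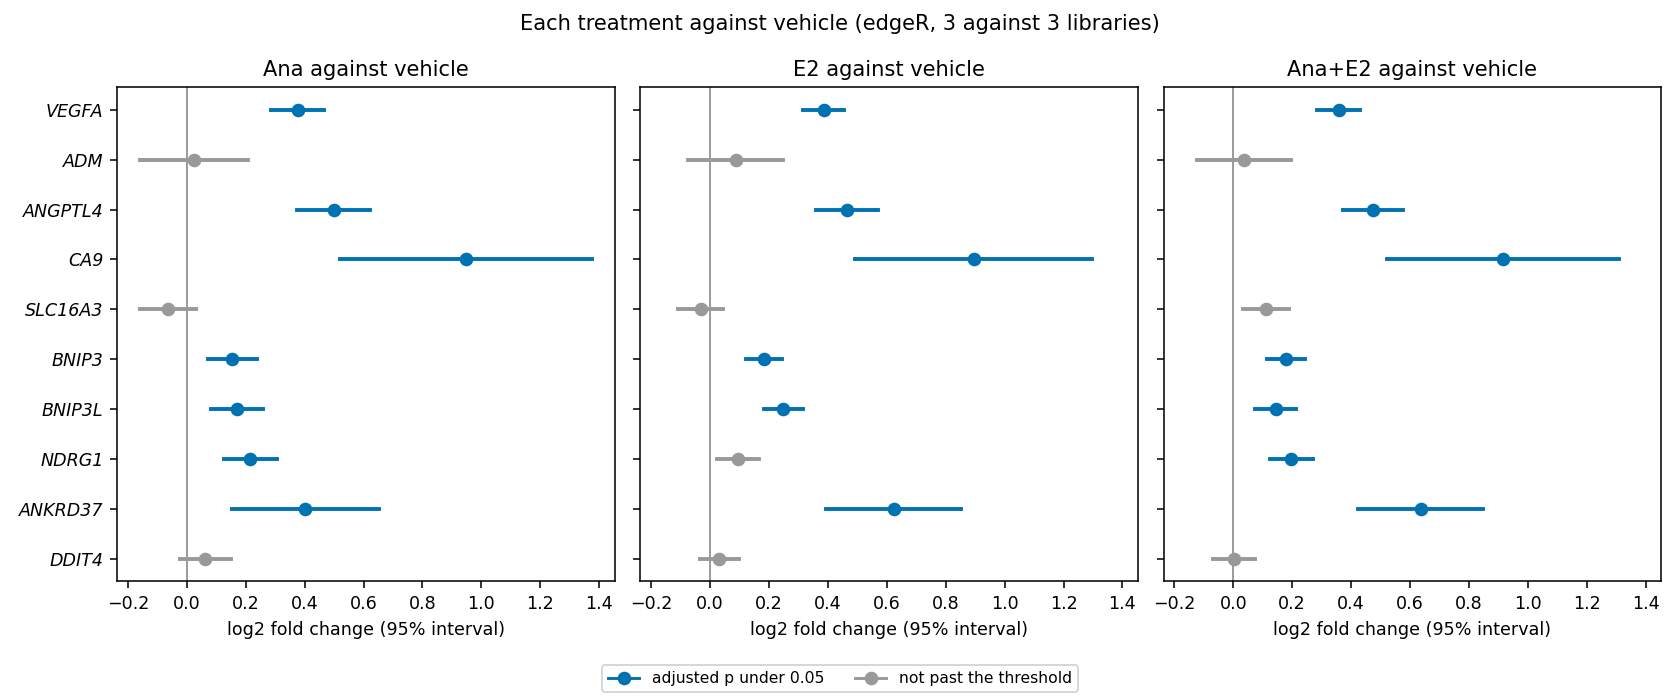
Log2 fold change of each gene against vehicle with its 95% interval, for anastrozole (Ana), E2 and the combination (Ana+E2), from edgeR on 3 against 3 libraries. Blue marks an adjusted p under 0.05 over all genes, as a description of genes selected on these values, and grey marks the rest. CA9 had the largest estimates (0.89 to 0.95) and the widest intervals, and ADM, SLC16A3 and DDIT4 were grey in all 3 panels.

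Between the treatments, 7 of the 10 genes were not called in any direct comparison, and the differences that were called were small. Between anastrozole and E2 none of the 10 genes was called by edgeR's quasi-likelihood test, where 1.33% of all genes were, and 1 of the 10 had an unadjusted p under 0.05, as did 1858 of the 21132 genes. That gene was NDRG1, higher with anastrozole by a log2 difference of 0.13 (95% interval 0.05 to 0.21, adjusted p = 0.0951, unadjusted p = 0.00169). Its 3 anastrozole libraries were all above its 3 E2 libraries, and 5.89% of all genes were separated in that direction. DESeq2 and limma-voom also called none of the 10, where they called 110 of 6168 and 70 of 21132 genes. NDRG1 was called without anastrozole replicate c (log2 0.13), among genes of at least 7 log2 CPM (log2 0.13) and with a correction for GC content (log2 0.12). The intervals bound what could have been missed: VEGFA differed between anastrozole and E2 by a log2 value between -0.08 and 0.08, ANGPTL4 between -0.07 and 0.15, and CA9, with its low counts, between -0.30 and 0.42.

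Of the genes that stood above vehicle, ANKRD37 had the lowest estimate with anastrozole relative to E2, at -0.22 (95% interval -0.44 to 0.01, edgeR adjusted p = 0.601). Against anastrozole the combination was higher for ANKRD37 by 0.23 (SE 0.11, edgeR adjusted p = 0.322), and its 3 combination libraries were above its 3 anastrozole libraries, as were those of 8.96% of all genes. Neither difference passed the test.

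Anastrozole plus E2 differed from E2 alone in 3 of the 10 genes by edgeR, where 6.74% of all genes were called, 3.23% higher and 3.51% lower. Genes of high level were called more often: with a minimum of 7 log2 CPM edgeR called 491 of 1707 genes. The share over all genes is therefore not the rate at the level of these 3 genes, and no excess is read from the count. SLC16A3 was higher with the combination by 0.14 (SE 0.04, adjusted p = 0.00253), with its 3 libraries above the 3 of E2. NDRG1 was higher by 0.10 (SE 0.03, adjusted p = 0.0353), and BNIP3L was lower, at -0.10 (SE 0.03, adjusted p = 0.0223), both again without overlap. Libraries without overlap were found for 10.9% of all genes in the higher and for 10.2% in the lower direction. SLC16A3 lost the call without E2 replicate c (log2 0.10), and BNIP3L and NDRG1 each kept it in 2 of the 6 fits that left out 1 library, with log2 differences between -0.12 and -0.09 for BNIP3L and between 0.09 and 0.12 for NDRG1. limma-voom called none of the 3, the fit on all 12 libraries called SLC16A3 alone, and DESeq2 called SLC16A3 and BNIP3L. In the same order, they called 451 of 21132, 824 of 21132 and 638 of 7003 genes. VEGFA (-0.03, 95% interval -0.09 to 0.04), ANGPTL4 (0.01, -0.08 to 0.10) and BNIP3 (95% interval -0.06 to 0.05) gave narrow intervals around 0.

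Anastrozole plus E2 differed from anastrozole alone in 1 of the 10 genes, where edgeR called 2.90% of all genes, 1.71% higher and 1.18% lower. SLC16A3 was higher with the combination by 0.17 (SE 0.05, edgeR adjusted p = 0.0108), and the 3 combination libraries were above the 3 of anastrozole. The call was lost without anastrozole replicate a, the lowest of its group (log2 0.08), and without combination replicate b or c. DESeq2 and limma-voom called none of the 10, where they called 222 of 5400 and 90 of 21132 genes. The 3 NDRG1 libraries of the combination were just below those of anastrozole, with a log2 difference of -0.02 (95% interval -0.11 to 0.06), and 7.92% of all genes were separated in that direction.

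**Figure D3:**
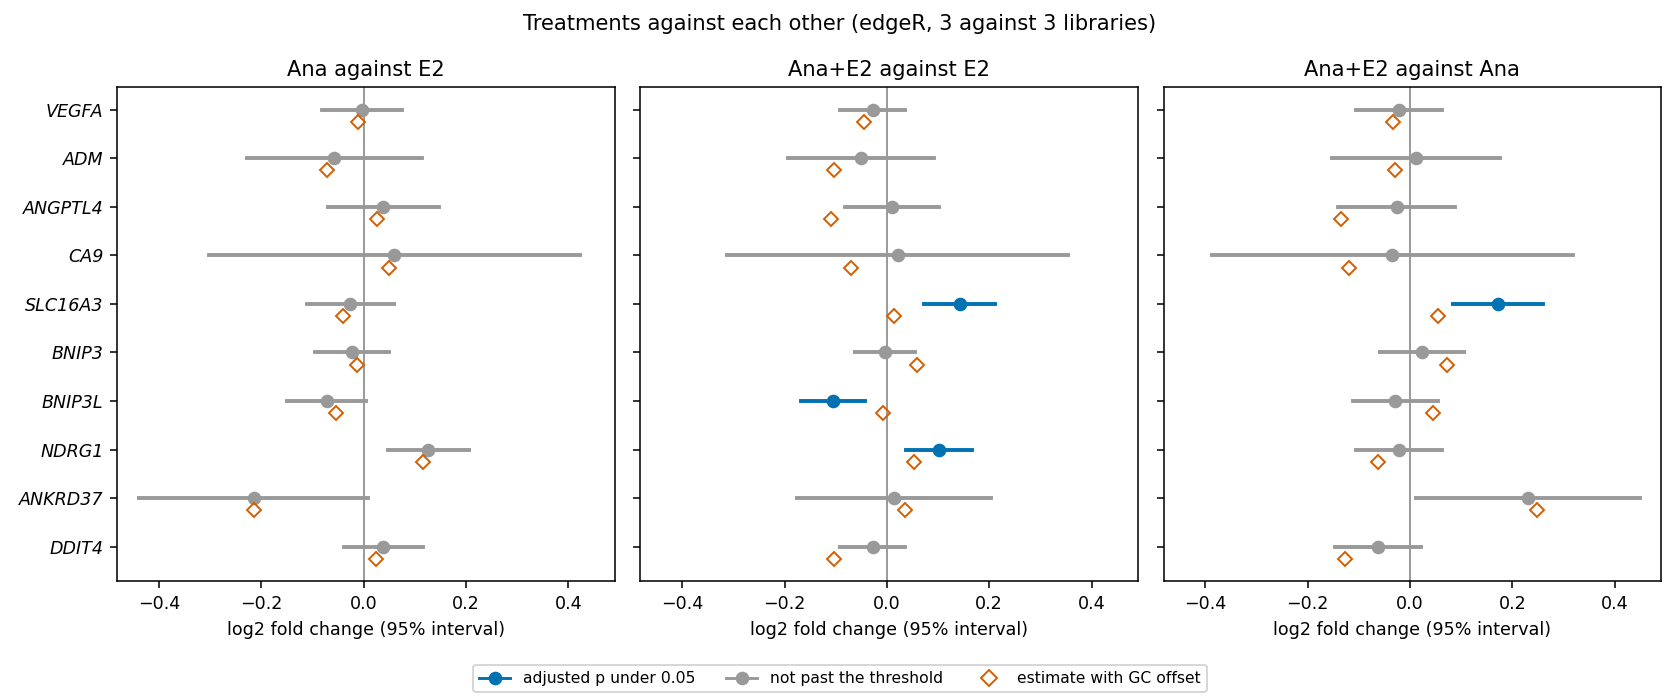
Log2 fold change of each gene between treatments with its 95% interval (edgeR, 3 against 3 libraries), for anastrozole against E2, the combination against E2 and the combination against anastrozole. Blue marks an adjusted p under 0.05 over all genes, and open diamonds give the estimate after the trend on GC content was removed; for SLC16A3 and BNIP3L the diamonds lay near 0 in the middle panel.

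The differences of the combination from either single treatment moved with the GC content of the transcripts. Over 10804 genes with a mean of at least 3 log2 CPM, the log2 difference between the combination and E2 rose with GC content with a Spearman coefficient of 0.69, and that between the combination and anastrozole with one of 0.58, against 0.12 for anastrozole and E2. This is a relation across genes, which are not independent and share the same libraries. SLC16A3, called higher, had 64.7% GC and stood at percentile 95.9 of these genes, and BNIP3L, called lower, had 37.4% GC and stood at percentile 6.91. When an offset took the GC trend out of every library, none of the 10 genes was called between the combination and E2, and 164 of all 21132 genes were, in place of 1424. The log2 differences were 0.01 for SLC16A3, -0.01 for BNIP3L and 0.05 for NDRG1. SLC16A3 fell to 0.05 between the combination and anastrozole and was no longer called, while DDIT4 (58.1% GC) was called lower, at -0.13 (edgeR adjusted p = 0.0106). Such an offset also takes away any true change that follows GC content.

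**Figure D4:**
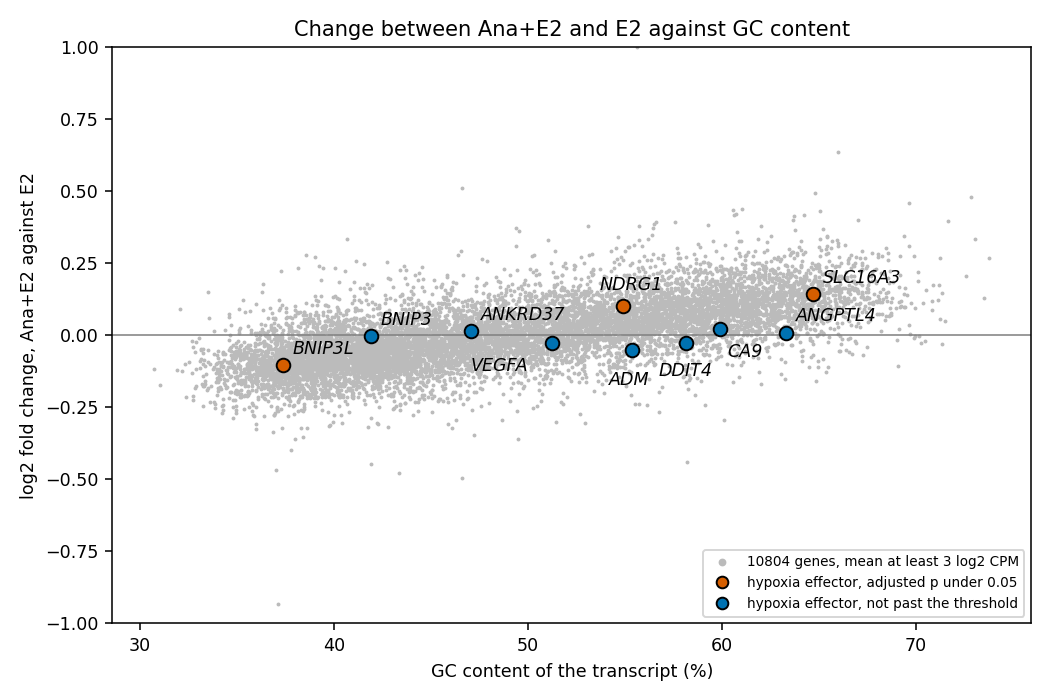
Log2 fold change between anastrozole plus E2 and E2 against the GC content of the canonical transcript, for 10804 genes (grey; 1 lies outside the axis) and the 10 genes named. Orange marks an adjusted p under 0.05; SLC16A3 and BNIP3L lie within the rising grey cloud at its opposite ends of GC content.

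The differences of anastrozole and of E2 from vehicle fell with GC content, with Spearman coefficients of -0.55 and -0.56, while that of the combination did not (-0.03). With the same offset ANGPTL4 (63.3% GC) stood at 0.62 with anastrozole and 0.60 with E2, CA9 (59.9% GC) at 1.04 and 0.99 and VEGFA (51.3% GC) at 0.40 and 0.41, each above its uncorrected value. BNIP3 (41.9% GC) went down to 0.11 and 0.12 and BNIP3L to 0.10 and 0.15, and BNIP3L was then no longer called with anastrozole. Called in addition were DDIT4 with both single treatments (0.14 and 0.12), and SLC16A3 (0.11) and NDRG1 (0.15) with E2. With the combination, where no trend was present, the offset moved VEGFA to 0.36, ANGPTL4 to 0.49 and CA9 to 0.93. SLC16A3 was called with the combination as well (0.13).

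The level with the combination was set beside the product of the single folds. The vehicle libraries, on which the genes were selected, enter both single folds and the interaction, so low vehicle values raise the product, and these values are a description from which nothing is concluded. If the folds of the single treatments multiplied, VEGFA would have been 1.70-fold above vehicle, where 1.28-fold was measured. For ANGPTL4 the product was 1.95 against a measured 1.39, for CA9 3.59 against 1.89 and for ANKRD37 2.03 against 1.55. BNIP3 (1.26 against 1.13), BNIP3L (1.34 against 1.10) and NDRG1 (1.24 against 1.15) had the same order. In the interaction of anastrozole and E2 over all 12 libraries, 6 of the 10 genes passed the threshold, where 10.9% of all genes did, 5.93% above and 4.93% below 0. Of these, 5 were below the product, namely VEGFA (-0.41 on the log2 scale, SE 0.06), ANGPTL4 (-0.49, SE 0.08), CA9 (-0.93, SE 0.27), BNIP3 (-0.16, SE 0.05) and BNIP3L (-0.28, SE 0.05), and SLC16A3 was above it (0.21, SE 0.06). NDRG1 (-0.11) and ANKRD37 (-0.39) were not called. Without 1 library, the call was lost for SLC16A3 without vehicle replicate a (0.15), anastrozole replicate a (0.12) or E2 replicate c (0.17), for CA9 without vehicle replicate c (-0.83) or anastrozole replicate b (-0.77), and for BNIP3 without anastrozole replicate b, E2 replicate a or combination replicate b (-0.18 to -0.13 over all 12 such fits). ANKRD37 gained the call without anastrozole replicate b (-0.48) or E2 replicate c (-0.51). With filterByExpr, DESeq2, limma-voom or a minimum of 7 log2 CPM, SLC16A3 was not called (0.20 to 0.24). With the GC offset VEGFA (-0.44), ANGPTL4 (-0.73) and CA9 (-1.11) remained below the product, BNIP3 (-0.05) and BNIP3L (-0.11) were no longer called, SLC16A3 turned to -0.06, and NDRG1 (-0.21) and DDIT4 (-0.24) were called, where the offset left 499 of all 21132 genes called in place of 2295.

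Per length of exon, the members spanned a wide range in vehicle. DDIT4 at 130 ± 3.80 and BNIP3 at 118 ± 2.23 CPM per kb of annotated exon (SD, n = 3) were the highest, followed by BNIP3L at 60.1 ± 0.733. ANKRD37 at 3.84 ± 0.383 and CA9 at 1.42 ± 0.182 CPM per kb were the lowest. The order depended on the transcript length used, at the top and in the middle: by the canonical transcript BNIP3 stood at 309 and VEGFA at 52.3 CPM per kb. DDIT4 had no canonical length and was given that of its longest transcript, by which it stood at 153 CPM per kb. CA9 was the lowest and ANKRD37 the second lowest by every length used.

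The genes whose levels over the 12 libraries ran most like those of a member were sought among 10545 genes with a mean of at least 10 CPM, by the root mean square distance of log2 CPM centred on each gene's mean. For VEGFA the nearest was WSB1, a ubiquitin ligase subunit and HIF target, at 0.0404, followed by FAM13A and MTMR11, and the nearest among the 10 was ANGPTL4, at rank 4. For ANGPTL4 the nearest of all was VEGFA, at 0.0673, followed by EGLN3 and WSB1. BNIP3L ran with NUSAP1 (0.0170), DTL and TOP2A, genes of the dividing cell, and BNIP3 with TPX2 (0.0275), MYB and PFN2, so that neither had its relative as its nearest profile (rank 103 and 44). SLC16A3 ran with ULK1 (0.0398), JAG2 and GUK1, NDRG1 with MANF (0.0409), TAF1 and MGEA5, and DDIT4 with RP2 (0.0250), PFKM and CYB5D2. ANKRD37 ran with MCAM (0.142), KLF10 and ENO2, and for ADM the nearest were MCF2L (0.0660), ST3GAL2 and FGFRL1. The distance grows with a gene's own spread, so it is not comparable between members. These distances describe 12 libraries in 4 groups and share their depth and GC trends. The vehicle libraries, on which the members were selected, enter every distance. A profile low in vehicle is therefore in part set by that choice, and nothing is concluded from the resemblance.

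A part of the other HIF targets was called higher than vehicle. This list and the following ones were written with earlier results of these libraries known. Of 44 tested targets outside the 10 genes, 11 were called higher and none lower with anastrozole, 27 and none with E2, and 24 and 1 with the combination, where 1.40%, 6.06% and 2.71% of all genes were called higher and 2.27%, 5.95% and 2.33% lower. With anastrozole 33 of the 44 were not called. Their median log2 differences were 0.14, 0.23 and 0.25, and 0 over all genes. Genes of high level were called more often: with a minimum of 7 log2 CPM, 83 of 1717, 338 of 1716 and 135 of 1703 were called higher, in the same order. The targets were not matched for level with all genes. ERO1L, an oxidase of disulfide formation, stood at 0.37 with anastrozole, 0.54 with E2 and 0.44 with both, and P4HA1, a collagen prolyl hydroxylase, at 0.32, 0.43 and 0.32. LOX, which crosslinks collagen, stood at 0.75, 0.99 and 0.95 from a low level of 3.98 ± 0.842 CPM in vehicle. CITED2, which competes with HIF for its coactivators, was the 1 gene called lower with the combination (-0.15), while with anastrozole it stood at 0.26.

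Several of these targets differed between the treatments. PFKFB3, which makes the activator of glycolysis fructose 2,6-bisphosphate, was at 239 ± 5.39 CPM in vehicle, 257 ± 7.41 with anastrozole, 318 ± 6.67 with E2 and 356 ± 2.14 with both (SD, n = 3). PFKFB3 was lower in the anastrozole than in the E2 libraries (-0.30, edgeR adjusted p = 3.61e-11) and higher with the combination than with E2 (0.16, edgeR adjusted p = 5.61e-05). CITED2 was higher with anastrozole than with E2 (0.32, edgeR adjusted p = 1.91e-09). Of the 44 targets, 1 was called higher and 5 lower with anastrozole than with E2, with a median of -0.07, where 0.620% and 0.705% of all genes were. Between the combination and E2 the counts were 1 and 5, where 3.23% and 3.51% of all genes were called, and between the combination and anastrozole 5 and 1, where 1.71% and 1.18% were.

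Genes that work beside the 10 were counted in the same way, where 3.67% of all genes were called with anastrozole, 12.0% with E2 and 5.04% with the combination. Of 25 angiogenic ligands and receptors none was called with anastrozole, 2 were called lower with E2, among them EFNA1 (-0.14), and 1 higher with the combination, the VEGF relative PGF (1.10, SE 0.33, from 0.785 to 1.69 CPM). Of 16 genes for pH and lactate 1 was called higher and 1 lower with anastrozole, 2 and 2 with E2 and 1 and 1 with both. The bicarbonate importer SLC4A7 was the gene higher under all 3 (0.22, 0.53 and 0.28), and it was lower with anastrozole (-0.31, edgeR adjusted p = 1.02e-10) and with the combination (-0.25, edgeR adjusted p = 6.09e-11) than with E2. BSG, the chaperone that takes MCT4 to the membrane, was higher with the combination than with E2 (0.10, edgeR adjusted p = 0.0332) and than with anastrozole (0.17, edgeR adjusted p = 0.00492). The values of the list genes are without the GC offset, and the part of GC content in their differences between treatments was not tested.

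Against the same shares of all genes (3.67%, 12.0% and 5.04%), of 25 mitophagy and autophagosome genes 3 were called higher with anastrozole (TAX1BP1, NBR1 and CALCOCO2, cargo receptors of autophagy, at 0.17, 0.17 and 0.15), 6 higher and 2 lower with E2 and 1 and 1 with both. ULK1, a kinase that starts autophagy, was higher with the combination than with E2 (0.16, edgeR adjusted p = 0.00309) or anastrozole (0.17, edgeR adjusted p = 0.0252). Both comparisons rose with GC content over the genes (Spearman coefficients 0.69 and 0.58), and the ULK1 values are without the GC offset. Of 17 genes of mTORC1 control none was called with anastrozole, 2 were called higher and 3 lower with E2, and 1 higher with both, which was RHEB, the activator of the complex (0.24; 0.26 with E2). None of the 3 other NDRG family genes was called against vehicle. Since DDIT4 and ANGPTL4 also answer to other factors, their targets were counted as well. Of 15 ATF4 targets 1 was called higher and 1 lower with anastrozole, 3 and none with E2 and 4 and none with both, among them DDIT3 (0.33, 0.36 and 0.32). Of 9 glucocorticoid and progestin receptor targets none, 3 and 2 were called higher and none lower. Of 8 PPAR targets none was called with anastrozole, 1 was called higher and 3 lower with E2, and 1 higher and 2 lower with both. The medians against vehicle of the lists other than HIF targets lay between -0.11 and 0.19.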

How the data were processed

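RNA-seq was performed on T47D cells in 12 libraries prepared with NuGEN Encore reagents. Per the submitters' processing notes, the authors aligned reads to hg19 with TopHat2 2.0.14 and Bowtie2 2.2.6 and counted them per gene with HTSeq, whose version, annotation and strand setting are not given in the sources used here. The deposited values are raw counts, as whole numbers without normalization, in 25375 lines of which 5 are HTSeq summary lines and were left out. Reads outside genes took 58.6% to 59.9% of each library, reads mapped to several places 6.60% to 7.40%, and ambiguous reads, which fell on overlapping genes, 0.572% to 0.604%.

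Starting from the counts, 4238 genes at 0 in all libraries were removed, and edgeR 4.0.16 (R 4.3.3) was run on the 6 libraries of each 2 groups compared (TMM, robust quasi-likelihood fit, F test, 2-sided, Benjamini-Hochberg adjustment over 21132 genes, threshold 0.05). The interaction was fitted on all 12 libraries. The SE of a log2 fold change was its absolute value divided by the square root of F, and means and SDs are of TMM-scaled CPM. Alternatives were DESeq2 1.42.0 or its size factors, library size alone, filterByExpr, a minimum of 7 log2 CPM, limma-voom (limma 3.58.1), a joint fit of all 12 libraries, a replicate block by letter, a GC offset (lowess, span 0.5, on genes of at least 3 log2 CPM) alone or with the block, and leaving out each library. A length by the canonical transcript, with the longest transcript in its place for DDIT4, was added after seeing the data.

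GC content and positions came from GENCODE (release v44lift37) on GRCh37, to which 21254 symbols and 1481 older symbols matched, and 97.9% of the 11037 genes of at least 3 log2 CPM had a GC value. Promoters on chromosome 8 were not used. Members and lists were chosen with earlier results of these data known. Named were the 10 members, for each member with a mean of at least 10 CPM its 3 nearest profiles, genes of each list past the threshold in some comparison (at most the 5 with the smallest p in each comparison with vehicle), and genes overlapping a member. LOX and CITED2 fell outside this rule and were named after their values were seen. Tested on counts simulated for 19751 genes of anastrozole against vehicle, the fit found 70% of genes changed 1.25-fold, 96% at 1.5-fold and 100% at 2-fold, with 4 false calls. The changes were placed in genes with a mean of at least 10 CPM, 50 for each fold, so the shares do not cover CA9. The simulated counts carried no GC trend, which the libraries had, so the false calls that such a trend gives were not tested. The depth limits CA9 (25 to 72 counts per library) and ANKRD37 (96 to 237), while the other members had at least 242 counts in every library.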

Additional observations from a re-analysis of the deposited data

Results flagged for a closer look

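The interaction term of edgeR over all 12 libraries, which sets the effect of anastrozole with E2 against that without it, passed the threshold for 6 of the 10 genes and for 10.9% of all genes. The genes were selected on the vehicle libraries that enter this term, and a low vehicle level lowers it, so its values are a description. The log2 effect of anastrozole in the presence of E2 minus that in its absence was -0.41 for VEGFA, -0.49 for ANGPTL4, -0.93 for CA9, -0.16 for BNIP3 and -0.28 for BNIP3L. For SLC16A3 it was 0.21, and 0.12 without anastrozole replicate a. The SLC16A3 value was not called with filterByExpr, DESeq2, limma-voom or the minimum of 7 log2 CPM (0.20 to 0.24). In the same order, these fits called 2159 of 14974, 1531 of 10479, 1539 of 21132 and 658 of 1708 genes. In each of the first 5 genes anastrozole alone stood above vehicle and anastrozole plus E2 was not called above E2, and for BNIP3L it was called below it (-0.10). SLC16A3 was called above both single treatments with the combination, and its interaction turned to -0.06 when the GC trend was removed. The interaction followed GC content over 10804 genes with a Spearman coefficient of 0.72. How much of each value comes with that trend was not tested beyond the GC offset, with which 499 of all 21132 genes were called in place of 2295, and of the 10 genes VEGFA, ANGPTL4, CA9, NDRG1 and DDIT4.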

How the results depend on the processing

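With anastrozole limma-voom called only VEGFA of the members, 1 in place of 7, and 15 of all 21132 genes in place of 776. A minimum of 7 log2 CPM, which left 6 members to test, called 4 with anastrozole, 3 with E2, 4 with the combination, 1 between anastrozole and E2, 0 between the combination and anastrozole and 3 in the interaction, where it called 143 of 1717, 728 of 1716, 273 of 1703, 125 of 1715, 134 of 1708 and 658 of 1708 genes. Between anastrozole and E2 the GC offset called 1, alone or with the replicate block, where it called 535 and 459 of all 21132 genes in place of 280. Between the combination and E2 limma-voom, the GC offset and the GC offset with the replicate block called 0, and the fit on all 12 libraries called 1. In the same order, these fits called 451, 164, 171 and 824 of all 21132 genes. Between the combination and anastrozole filterByExpr, DESeq2 and limma-voom called 0, where they called 295 of 14728, 222 of 5400 and 90 of 21132 genes. With 1 library left out, the members called ranged from 4 to 6 with anastrozole (4 without anastrozole replicate a or b or vehicle replicate c), 6 to 7 with E2, 7 to 8 with the combination, 0 to 1 between anastrozole and E2, 1 to 3 between the combination and E2 (1 without combination replicate b or c or E2 replicate a or c), 0 to 1 between the combination and anastrozole (0 without combination replicate b or c or anastrozole replicate a), and 5 to 6 in the interaction. In the same fits 191 to 1651, 1741 to 2808, 682 to 964, 107 to 414, 885 to 1176, 234 to 1706 and 1535 to 3202 of all genes were called, in the same order, and in the comparisons of anastrozole alone and the interaction the most were called without anastrozole replicate c.

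The letters a, b and c were not taken as a pairing, since in no comparison did all 3 same-lettered pairs correlate above 0.1 (-0.20 to 0.18 overall). All 3 were above 0 in the combination against vehicle (0.035 to 0.14), where each library correlated best with its own letter, and in the combination against anastrozole (0.0068 to 0.14), which is a hint from the data only. With the replicate block, 6, 6 and 8 members were called against vehicle with anastrozole (without ANKRD37), E2 and both (with SLC16A3 added), 0, 3 and 1 in the direct comparisons and 6 in the interaction. In the same order, the block called 823, 2207, 1439, 180, 1487, 620 and 2218 of all 21132 genes.

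Signs turned for estimates that were not called, and for the called interaction of SLC16A3 (0.21). Against vehicle the GC offset turned SLC16A3 to 0.072 with anastrozole and to 0.11 with E2, the latter called. Leaving out 1 library turned ADM with anastrozole (-0.078 to 0.17) and with the combination (-0.027 to 0.073), SLC16A3 with anastrozole (-0.12 to 0.025) and with E2 (-0.089 to 0.022), DDIT4 with the combination (-0.018 to 0.025) and ADM in the interaction (-0.22 to 0.028). DESeq2 and its size factors gave -0.00078 and -0.00079 for DDIT4 with the combination. Between anastrozole and E2 VEGFA became 0.0030 with the minimum of 7 log2 CPM. Between the combination and E2 the GC offset, alone and with the replicate block, gave -0.109 and -0.110 for ANGPTL4, -0.0697 and -0.0695 for CA9 and 0.0594 and 0.0592 for BNIP3, for which library size alone gave 0.0057 and the minimum of 7 log2 CPM 0.0207. Between the combination and anastrozole the same offsets gave -0.0305 and -0.0289 for ADM and 0.0448 and 0.0449 for BNIP3L, and in the interaction -0.0561 and -0.0564 for SLC16A3. Leaving out 1 library gave ranges across 0 between anastrozole and E2 for VEGFA (-0.0350 to 0.0336), ADM (-0.163 to 0.0835), ANGPTL4 (-0.0061 to 0.102), CA9 (-0.0938 to 0.182), SLC16A3 (-0.0886 to 0.0569) and BNIP3 (-0.0445 to 0.0024). It did so between the combination and E2 for ANGPTL4 (-0.0169 to 0.0392), CA9 (-0.0080 to 0.0522), BNIP3 (-0.0236 to 0.0219) and ANKRD37 (-0.107 to 0.115), and between the combination and anastrozole for VEGFA (-0.0640 to 0.0090), ADM (-0.137 to 0.116), ANGPTL4 (-0.0947 to 0.0183), CA9 (-0.157 to 0.118) and BNIP3L (-0.0670 to 0.0040). The causes were not tested. The differences of BNIP3, BNIP3L and NDRG1 from vehicle were below 1.25-fold, the smallest fold simulated, so the share of such changes that the fit recovers was not tested.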
